A study of Mus musculus with 5 samples.

Results

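The 200 strongest HSF1 peaks in NMDA-treated mouse cortical neurons were taken from the authors' NMDA peak list by fold enrichment at the summit. Fold enrichment alone selected them, with ties ordered by −log10 p, then by chromosome number and start. The 200 peaks were drawn from 3631 on chromosomes 1 to 19 and X whose summit lay outside Top2b, in a list of 3646. The other 13 peaks with a summit inside Top2b and the 2 mitochondrial peaks were left out. The members were thus chosen by a measured value of the same list, so their fold, p, fragment numbers and rank are descriptions, and no test was made on them.

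The chromatin came from primary wild-type neurons of Swiss-Webster mice, isolated at embryonic day 16 and used at day 13 in culture. The NMDA group received 50 µM NMDA, an agonist of a class of glutamate receptors, for 10 min and then spent 20 min without the drug. The control group was untreated, and each group had 2 ChIP libraries. A single input library (sheared chromatin without immunoprecipitation) came from untreated neurons, so the NMDA group had no input of its own. The authors deposited 1 peak list per condition, so values per library were not analysed here and no peak has a replicate error. Peaks are not replicates, and no difference between the 200 and the other 3431 peaks was tested. A ChIP peak does not measure a cell's identity, so the neuron label could not be checked against marker expression. Of 17 neuronal marker genes 1 (5.88%), Map2, had a member within 10 kb, against 0.670% of all protein-coding genes. None of the 10 astrocyte, 12 microglia and 11 oligodendrocyte lineage genes examined had one. At so low a background, lists this short would rarely hold a member, so these counts do not speak to cell type.

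HSF1 is the master transcription factor of the heat shock response. It is kept inactive by chaperones, and when unfolded proteins occupy these it assembles into trimers that bind heat shock elements, arrays of inverted GAA units. Its best known targets encode chaperones, the proteins that fold and refold other proteins. In neurons, strong glutamate receptor stimulation drives calcium entry and activity-dependent transcription.

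The sequences below show where heat shock elements lay under members whose gene start is in the RefSeq promoter table (GRCm38.p6), with 3 near matches and 1 strong site without a match for contrast. The search used 3 alternating units, namely GAANNTTC followed by NNGAA, or TTCNNGAA followed by NNTTC, on both strands. Each therefore overlaps a match to the 2-unit motif, GAANNTTC or TTCNNGAA. Capitals mark the matched element, spacer letters included. In the lines for Hspe1, Chordc1, Hsph1 downstream and Cntd1 the match is exact. In the lines for Hsph1 upstream, Fkbp4 and Dnaja1 it has 1 mismatch among the core letters. Ubqln1 has no match even so.
Hspe1, chr1:55088029-55088106, plus strand: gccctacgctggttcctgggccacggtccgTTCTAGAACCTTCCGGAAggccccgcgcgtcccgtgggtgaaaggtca
Chordc1, chr9:18292233-18292293, plus strand: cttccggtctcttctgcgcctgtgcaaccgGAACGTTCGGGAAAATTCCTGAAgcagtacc
Hsph1 upstream, chr5:149636337-149636396, minus strand: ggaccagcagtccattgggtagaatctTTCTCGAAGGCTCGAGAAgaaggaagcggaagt
Hsph1 downstream, chr5:149636287-149636311, minus strand: aatgctgcagaTTCTGGAAAGTTCt
Cntd1, chr11:101279217-101279246, plus strand: gaatccaaggtgtggcaGAAGATTCTGGAA
Fkbp4, chr6:128438770-128438842, minus strand: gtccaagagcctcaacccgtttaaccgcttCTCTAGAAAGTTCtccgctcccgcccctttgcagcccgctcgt
Dnaja1, chr4:40722309-40722381, plus strand: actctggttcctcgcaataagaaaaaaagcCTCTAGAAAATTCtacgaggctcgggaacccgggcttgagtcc
Ubqln1, chr13:58215817-58215903, minus strand: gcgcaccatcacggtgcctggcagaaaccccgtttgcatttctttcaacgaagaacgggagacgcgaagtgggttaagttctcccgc

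Exact 3-unit elements lay in the promoter windows of 5 members, and within 50 bp of the summit in 3 of these. The table gives 300 bases per start, 250 before it and 50 after. A window overlapped 22 of the 200 peaks, though at some, such as Faxc and Slc25a29, it did not reach the summit. Those summits lay at -613 and -358 bp from the start, and sequence at such summits was not searched. The 5 are 22.7% of these 22 (exact Clopper-Pearson 95% interval 7.82 to 45.4%). The share was 3.43% (6 of 175) for the other NMDA peaks with a window and 0.603% (198 of 32851) for all windows in the table. The centre of the element lay 2 bp from the summit at Hspe1, 1 bp at Chordc1 and 39 bp at Hsph1. At Cntd1 it was 168 bp away. The last match lay in the window of Gm6297 beside Dnaja1, 292 bp from the summit and outside the peak. With 1 mismatch allowed the counts were 9 of 22 members, 14.3% of the other peaks with a window and 7.22% of all windows. These near matches included Fkbp4, 19 bp from the summit, and Dnaja1, 97 bp from it. The Dnaja1 peak was already counted for the exact match of Gm6297. Genes outside the chaperone lists also had near matches, namely Abcc5 (16 bp from the summit), Zfp12 (112 bp) and the noncoding gene Gm39671 (210 bp). The shorter 2-unit motif was in the windows of 7 of 22 members, 16.6% of the other peaks with a window and 15.1% of all windows. Of other motifs, the E-box CACGTG was in 6 of 22 members, 10.3% of the other peaks with a window and 7.15% of all windows. For the cyclic AMP response element TGACGTCA these were 1 of 22, 4% and 1.79%. For the AP-1 motif TGANTCA they were 0 of 22, 3.43% and 7.81%. For the CTCF core CCCTC they were 18 of 22, 70.9% and 66.0%. A peak counted if any of its windows held the motif, whereas the share of all windows counts each window once. A match is a description of letters in a window, not evidence of binding. The other members were not searched.

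Fold enrichment in this list could be read back as fragment numbers. For each of the 200, a single whole number of fragments at the summit and a single local background gave the deposited fold and −log10 p within 0.002 of the latter. In this relation fold is fragments plus 1 over background plus 1, and p is a Poisson tail, as in MACS2. The next best whole number missed by at least 0.268. The 200 summits carried 35 to 317 fragments with a median of 49, against a median of 25 in the other peaks. Background was at the list's floor of 8.30 fragments for 129 of the 200 and above it for 71. Among the other peaks 68.1% were at the floor. The chromosome 9 site at chr9:3019013-3019497 stood apart, with 317 fragments over a background of 80.2 and a fold of 3.91. Without it the highest background was 17.8. Intervals on fragment numbers are exact Poisson 95% intervals and cover counting error only, since fragments copied by PCR are not independent.

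Chaperone genes of the HSP70 machine carried 3 of the 6 strongest sites. At Hspa8, which encodes constitutive HSC70, the peak at chr9:40800968-40801513 held 142 fragments (119.6 to 167) and had 15.4-fold enrichment, with its summit 68 bp from the gene. At Hsph1, an HSP110 that exchanges the nucleotide of HSP70, the peak at chr5:149635722-149636902 held 141 fragments (119 to 166) and had 15.3-fold enrichment. Its summit was 3 bp downstream of a listed start, and at 1181 bp it was the widest of the 200. At St13, which encodes the cochaperone HIP, the peak at chr15:81399357-81400312 held 163 fragments (139 to 190.03) over a background of 10.1 and had 14.8-fold enrichment. That summit lay 124 bp from St13 and 320 bp upstream of the start of Xpnpep3, so the genes of this pair cannot be told apart. Stip1 encodes HOP, which links HSP70 to HSP90. It was far weaker, with 40 fragments (28.6 to 54.5) and 3.98-fold enrichment 239 bp upstream of its start.

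Genes of the HSP90 machine were spread over the middle ranks. Hsp90aa1 encodes the stress-inducible HSP90 and had 2 members. The peak at chr12:110696015-110696543, its summit 2 bp from a gene end, held 75 fragments (59.0 to 94.0) and had 8.17-fold enrichment. The peak at chr12:110687771-110688480, 3050 bp outside the gene, held 49 fragments and had 5.38-fold enrichment. Their summits were 8407 bp apart, with the gene between them. Fkbp4 encodes an immunophilin cochaperone and had 60 fragments (45.8 to 77.2) and 6.15-fold enrichment 169 bp upstream of its start. Ppid encodes the cyclophilin cochaperone and had 47 fragments (34.5 to 62.5) and 5.16-fold enrichment 395 bp from a gene end. Chordc1, another HSP90 cochaperone, had 56 fragments (42.3 to 72.7) over a background of 10.7 and 4.87-fold enrichment. Its summit was 1 bp from the start, on the element printed above.

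Of the remaining chaperone families the chaperonins had 2 members and the HSP40 family had 1. Hspd1 and Hspe1 code for the chaperonin of mitochondria and its lid, and the peak at their starts lay at chr1:55087639-55088459. It held 129 fragments (108 to 153) and had 13.98-fold enrichment, with the summit 81 bp upstream of Hspe1 and 135 bp upstream of an Hspd1 start. Tcp1, a subunit of the cytosolic chaperonin, had 39 fragments (27.7 to 53.3) and 4.30-fold enrichment 433 bp downstream of its start, where it also lay inside Mrpl18. Dnaja1, an HSP40 that delivers clients to HSP70, had 79 fragments (62.5 to 98.5) over a background of 11.1 and 6.63-fold enrichment 220 bp upstream of its start.

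In all, 12 of 97 genes on the chaperone lists (12.4%, Clopper-Pearson interval 6.56 to 20.6%) had a member within 1000 bp of an end, against 0.148% of all 21627 protein-coding genes. By family these were 4 of 23 for HSP70 and HSP110 with partners, 4 of 18 for HSP90 with cochaperones, 3 of 16 for chaperonins, 1 of 31 for HSP40 and 0 of 9 for small heat shock proteins. Another 8 of the 97 genes had only a weaker NMDA peak at an end, Hsp90ab1 and Cct8 among them, against 1.78% of all protein-coding genes (384 of 21627). The 12 genes shared 11 peaks, of which 4 were among the first 10 ranks, 6 among the first 50 and 10 among the first 150. These 11 peaks are a small share of the 200, so 189 of the strongest sites lay away from the ends of the listed chaperone genes. No gene end on the lists of immediate early (39 genes), synaptic and glutamate receptor (46), topoisomerase, repair and cohesin (28) or proteasome genes (31) had a member. Of ubiquitin and heat shock factor genes 0 of 14 had one at an end.

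**Figure D1:**
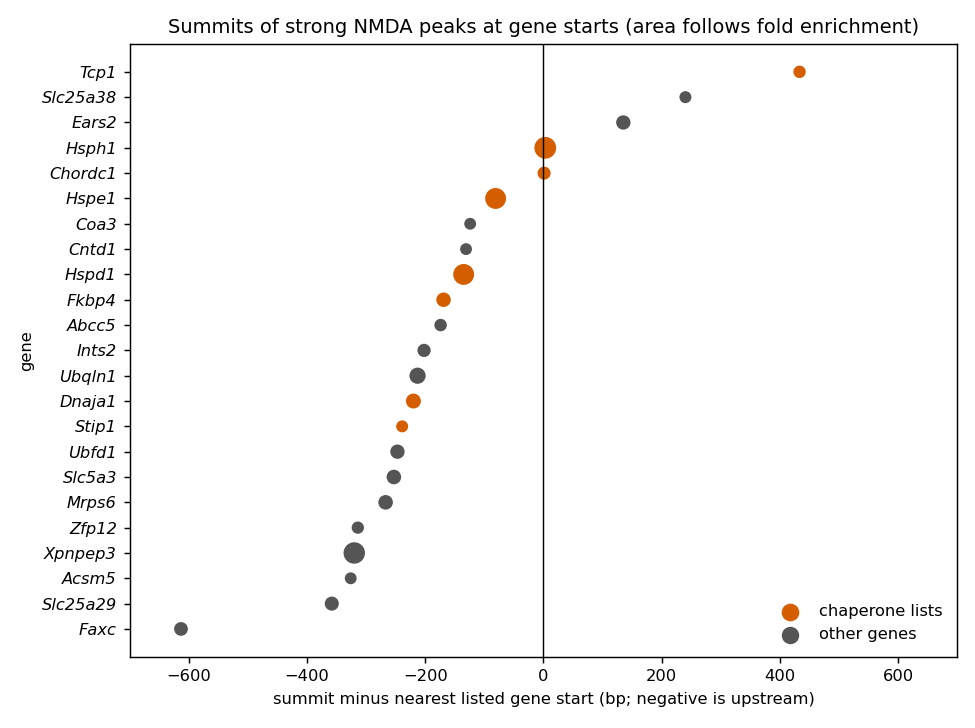
Distance in bp from the summit to the nearest listed start (x axis, negative is upstream) for each gene (y axis) that had a member within 1000 bp of both an annotated end and a listed start. Point area follows fold enrichment and orange marks genes of the chaperone lists. Most summits lay upstream of the start, from 81 bp at Hspe1 to 613 bp at Faxc, and Tcp1 lay farthest downstream at 433 bp.

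Gene-end members outside the chaperone lists numbered 15 and had folds from 3.87 to 13.01. The strongest was the peak at chr4:152177794-152178199, with 120 fragments (99.5 to 143), 86 bp from an annotated end of Acot7, an acyl-CoA thioesterase gene. Relative to the only Acot7 start in the table the summit was at -7594 bp. Ubqln1 encodes ubiquilin, which carries ubiquitinated proteins to the proteasome, and had 73 fragments (57.2 to 91.8) and 7.96-fold enrichment 213 bp upstream of its start. Tshz2, a zinc finger gene, had 6.78-fold enrichment at an end 440490 bp from its listed start. A peak upstream of Slc5a3, the myo-inositol transporter, and Mrps6, a mitochondrial ribosomal protein gene, had 6.24-fold enrichment. The next, at 6.02-fold, had its summit inside Ears2, a mitochondrial tRNA synthetase gene, 135 bp downstream of its start and at -247 bp from the start of Ubfd1. Lower values were those of Slc25a29 (5.75-fold), Faxc (5.46-fold), Adi1 (5.38-fold), Ints2 (5.01-fold), Abcc5 (4.36-fold) and Zfp12 (4.19-fold). Mat2b (4.09-fold), Slc25a38 (3.98-fold), Acsm5 (3.87-fold) and the pair Coa3 and Cntd1 (3.87-fold) were near the threshold. Fragments at these last 4 sites were 35 to 37, so their order is within counting error.

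The promoter table held a start for a gene at 22 of the 26 gene-end members. At 19 of them the summit lay within 1000 bp of a listed start, 14 upstream and 5 downstream, at a median distance of 220 bp. Acot7, Tshz2 and Mat2b were the 3 members without a listed start that close. Hspa8, Hsp90aa1, Adi1 and Ppid were not in the table. At 6 of the 26 the summit lay within 1000 bp of an end of 2 genes, so 32 genes shared the 26 peaks. A listed start can also lie inside a gene, and such starts were not counted as gene ends. Relative to such a start, Rtn1 had a 6.88-fold member at -327 bp, and the Tcp1 peak lay at -671 bp from one of Mrpl18.

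Most of the 200 strongest sites did not lie at gene ends. A summit within 1000 bp of a protein-coding gene end was found for 26 of 200 (13%, Clopper-Pearson interval 8.67 to 18.5%), against 9.88% of the other NMDA peaks. A further 83 lay inside a gene away from its ends (41.5%, 34.6 to 48.7%, against 43.0%), and 91 lay between genes (45.5%, 38.5 to 52.7%, against 47.1%). Each interval of the 200 includes the share of the other peaks. The intervals treat peaks as independent draws, which peaks ranked within a list are not, so they test no difference. Gene-end sites were 9 of the first 50 ranks, 8 of the next 50, then 3 and 6, and the intervals of these bands overlap. Strand and exons are not in the gene table, so summits are not assigned to exons, introns or untranslated regions.

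**Figure D2:**
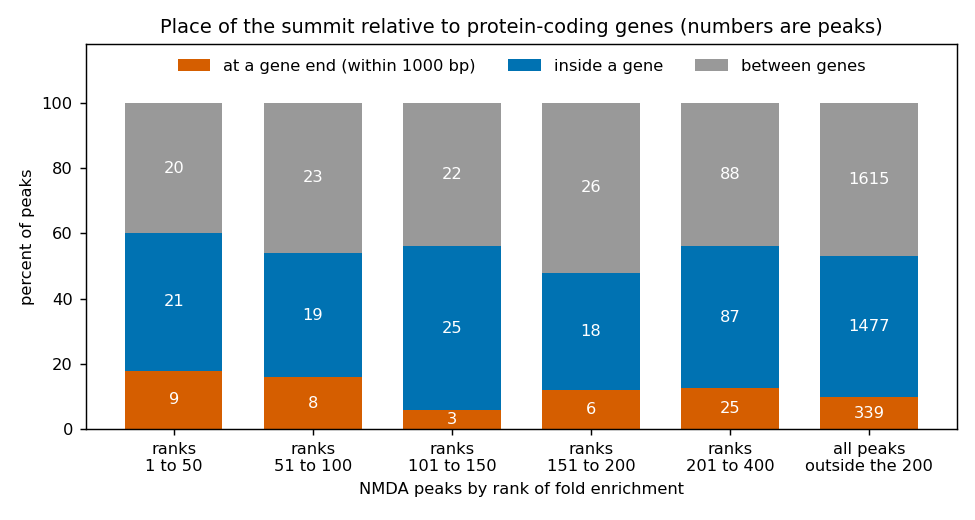
Percent of NMDA peaks (y axis) at a gene end, inside a gene or between genes, by rank of fold enrichment (x axis), with the number of peaks in each part. Gene-end peaks were 18.0% of the first 50 ranks and 12.5% of the next 200 after the members, against 9.88% of all peaks outside the 200.

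The strongest site of all lay inside Cep57l1, a 91.0 kb gene, at chr10:41746125-41747031, with 225 fragments (197 to 256) and 24.3-fold enrichment. Its summit was 57 bp from an end of the noncoding gene BC048559. Other strong sites inside genes were in Slc35f1 (11.5-fold), Ksr2, which encodes a scaffold of the MAP kinase pathway (10.8-fold), Pla2g5, a phospholipase gene (9.79-fold), and Cyfip2, which encodes a subunit of the actin-regulating WAVE complex (9.04-fold). Genes that held a member away from their ends ranged from Bpifb3 at 14.8 kb to Dlg2 at 1973 kb. Among these 83 members 50 (60.2%) lay in genes of at least 100 kb, against 68.4% of the other peaks inside genes, and the median gene length was 194 kb against 179.6 kb. Dlg2, which encodes a postsynaptic scaffold, held 2 members (6.99-fold and 6.02-fold) among its 11 NMDA peaks. Auts2 held 2 of 5 (8.28-fold and 3.87-fold) and Eml6 held 2 of 3 (7.97-fold and 5.45-fold). The activity-induced transcription factor gene Npas4 held a member at 5.81-fold, and Map2, a dendritic cytoskeleton gene, held 1 at 3.98-fold.

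For the 91 members between genes the median distance to the nearest protein-coding gene was 46.0 kb, against 49.4 kb for such peaks among the 200 next in rank and 98.8 kb for the 1615 other peaks between genes. Over 100 kb from any gene were 32 of the 91 (35.2%), against 49.8% of the other peaks between genes. Among the 200 next in rank the count was 27 of 88 (30.7%), so the lower share is not particular to the members. By rank the 32 members were 4 of 20 in the first 50, 5 of 23, 9 of 22 and 14 of 26 in the last 50. The difference between members and other peaks was not tested. The strongest were at chr12:16836109-16836961, 9.76 kb from E2f6 (180 fragments, 19.5-fold), and chr2:174858370-174858929, 74.6 kb from Edn3 (191 fragments over a background of 10.7, 16.4-fold). A site 372 kb from Fgf9 had 10.1-fold enrichment, and 1 between genes 5.73 kb from Egr1, an immediate early gene, had 8.87-fold. The most remote member, 1441 kb from Kcnt2, had 4.91-fold enrichment.

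Counting noncoding genes as well, 40 of the 200 (20.0%) lay at a gene end, against 14% of the other peaks. The 200 next in rank had 41 (20.5%) there. Of the 40 members, 14 were at noncoding genes alone. These 14 were 12 long noncoding RNA genes, 1 microRNA gene (Mir1952, 534 bp away) and 1 tRNA gene. Besides BC048559 they included Gm39671 inside Eml6, 220 bp from the summit of a 7.97-fold peak, and Gm40925, 380 bp from a 6.72-fold peak. Gm36495 was 105 bp from the 4.09-fold neighbour of the second strongest site.

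**Figure D3:**
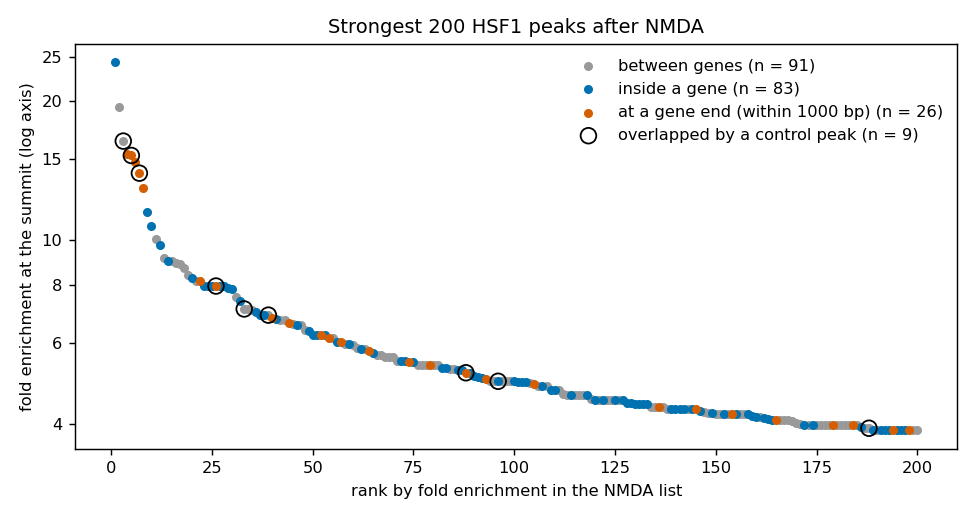
Fold enrichment at the summit (y axis, log scale) of each of the 200 peaks by rank (x axis), coloured by place relative to protein-coding genes, with circles around peaks overlapped by a control peak. Fold falls from 24.3 to 8.17 over the first 22 ranks and reaches 3.87 at the last, and 6 of the 9 circles lie in the first 50 ranks.

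Stronger peaks were wider. The median width of the 200 was 443.5 bp (quartiles 355 and 555.5, range 195 to 1181 bp), against 298 bp (quartiles 249.5 and 371) for the other peaks. By band of 50 ranks the medians were 563, 446, 421.5 and 325.5 bp, and the next 200 peaks after the members had 306 bp. Width is read from the same fragments as the fold that chose the peaks, so it is not independent of the choice. The 3 widest were at Hsph1, at Ears2 (1035 bp) and inside Gfpt2 (1000 bp). The 3 narrowest were in Map2 (195 bp), at Acsm5 (217 bp) and 25.2 kb from Cct6b (233 bp). Chaperone gene-end peaks had a median of 618 bp, and the other 189 had 441 bp. Summits sat near the middle, at a median of 48.7% of the width from the left edge (quartiles 41.9 and 55.2%). In the other peaks the median was 49.4% (quartiles 37.9 and 61.0%).

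**Figure D4:**
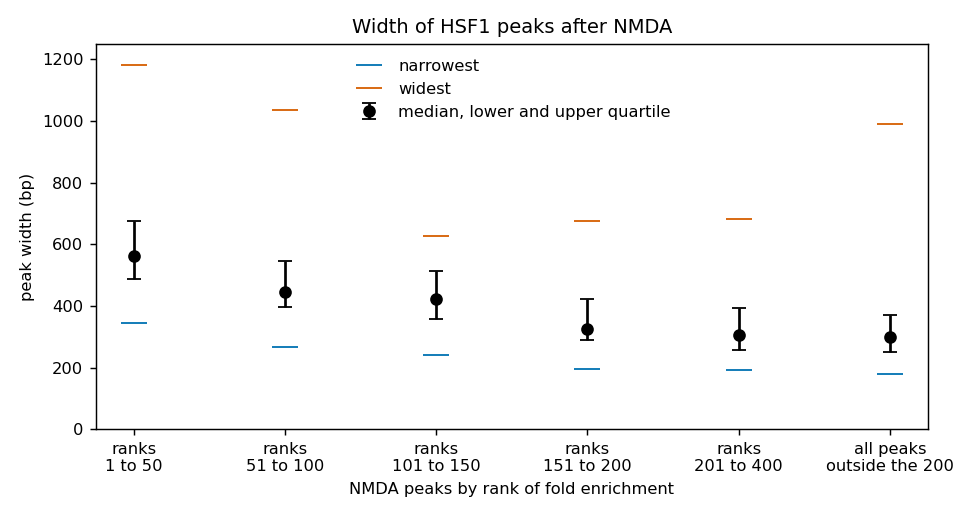
Peak width in bp (y axis) by rank of fold enrichment (x axis). Points are medians, bars run from the lower to the upper quartile, and dashes mark the narrowest and widest peak of each set. The median falls from 563 bp in the first 50 ranks to 306 bp in the 200 peaks after the members and 298 bp in all peaks outside the 200.

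The strongest sites were scattered over the autosomes. The median distance from a member to the nearest other member was 3.09 Mb (quartiles 0.932 and 7.51 Mb), and 14 of 200 had another within 100 kb. Only 2 pairs were within 10 kb. The 19.5-fold and 4.09-fold sites near E2f6 were 8290 bp apart, and the pair flanking Hsp90aa1 was 8407 bp apart. Another NMDA peak of any strength lay within 10 kb of 14 members (7%) and within 100 kb of 82 (41.0%). In the other peaks these shares were 4.84% and 32.7%, and in the 200 next in rank the 10 kb share was 8.5%. The closest such peak to a member was 650 bp from the summit at Abcc5. Neighbours under 1000 bp away were also found at Dnaja1 (806 bp) and in Gfpt2 (974 bp). Chromosomes 5, 11 and 9 had the most members per Mb of annotated span (0.138, 0.139 and 0.132). Chromosomes 18, 14 and 17 had the fewest of the autosomes (0.0228, 0.0321 and 0.0422), and X had 0 members among its 5 peaks. As a share of all NMDA peaks there, members were 8.71%, 9.19% and 8.79% on chromosomes 5, 11 and 9. On chromosomes 18, 14 and 17 they were 1.43%, 2.34% and 4.17%. The share on chromosome 17 was above those on chromosomes 3 (3.76%), 4 (3.91%), 8 (3.85%) and 16 (3.19%).

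A control peak lay at few of these sites. Of the 200, 9 (4.50%, Clopper-Pearson interval 2.08 to 8.37%) were overlapped by a control peak, against 2.16% of the other NMDA peaks. These were 6 of the first 50 ranks, 2 of the next 50, 0 of the third 50 and 1 of the last 50. Of these 9, 4 were at gene ends, namely Hsph1, the Hspd1 and Hspe1 pair, Ubqln1 and Ppid. The others were inside Cpa4, near Zfp664, near Mcur1, on chromosome 2 far from Edn3, and at the high-background site on chromosome 9. Summits of the 2 lists were 3 to 76 bp apart at these 9 sites. The background floor of the control list was 8.74 fragments, against 8.30 in the NMDA list. Whether the lists share a depth or scale is not known, and fragment numbers depend on it.

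Fragment numbers at the shared sites were higher in the NMDA list at 8 of 9. At Hsph1 the control list had 32 fragments (21.9 to 45.2) and 3.39-fold enrichment, against 141 (119 to 166) after NMDA. At the Hspd1 and Hspe1 site it had 40 (28.6 to 54.5) against 129 (108 to 153), and at the chromosome 2 site 53 (39.7 to 69.3) against 191 (165 to 220.1). For these 3 the NMDA number is far above the control interval. At Ubqln1 the numbers were 28 (18.6 to 40.5) and 73 (57.2 to 91.8), near Zfp664 25 (16.2 to 36.9) and 65 (50.2 to 82.8), and near Mcur1 27 (17.8 to 39.3) and 63 (48.4 to 80.6). Ppid had 33 (22.7 to 46.3) and 47 (34.5 to 62.5), and Cpa4 had 27 (17.8 to 39.3) and 45 (32.8 to 60.2), with intervals that overlap. The chromosome 9 site went the other way, with 424 (385 to 466) in the control list and 317 (283 to 354) in the NMDA list. The NMDA numbers chose the sites and the control numbers did not, so a higher NMDA number is partly fixed by the choice. Each list combines 2 libraries, so these differences have no replicate check.

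**Figure D5:**
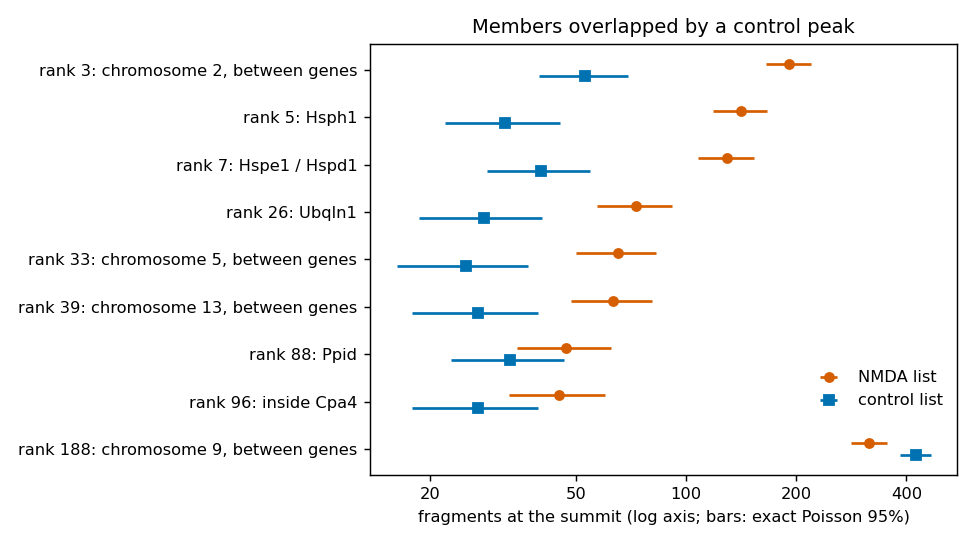
Fragments at the summit (x axis, log scale) in the NMDA list (circles) and the control list (squares) for the 9 members overlapped by a control peak (y axis, by rank). Bars are exact Poisson 95% intervals. They are apart, with NMDA higher, at 6 sites, overlap at Ppid and Cpa4, and are apart with the control higher at the chromosome 9 site.

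The other 191 members had no overlapping control peak, Hspa8, St13, Acot7, Hsp90aa1, Dnaja1, Fkbp4, Chordc1, Tcp1 and Stip1 among them. The nearest control summit was 162 kb from that of Hspa8 and 222 kb from that of St13. At Abcc5 a control summit lay 465 bp away without overlap. Over all 200 the median distance to a control summit was 296 kb, against 216 kb for the other NMDA peaks. Control fragment numbers at unlisted sites were not analysed here, so an unlisted site is not shown to lack HSF1. The lowest fragment number in the control list was 18. Outside Top2b the control list held 8 peaks at or above the 3.87-fold of the last member, on its own scale. Of the 200 strongest control peaks 5 overlapped a member.

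The threshold fell within a tie. The last members and the first peaks outside shared a fold of 3.87 and 35 fragments, and 18 peaks had these values, of which 12 were taken by position and 6 were not. The last 5 members lay in Gm32742, in 1700102P08Rik, at Coa3 and Cntd1, near Gpx6 and near Rbm24. The first 5 outside were 5441 bp from Ptpdc1, 492502 bp from Dach1, in Dzip1 and 2 in Npas4. The next lower fold was 3.85.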

How the data were processed

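ChIP-seq of HSF1 in untreated neurons (2 libraries) and NMDA-treated neurons (2), with 1 input, gave 1 deposited peak list per condition. The submitters' processing notes list BWA as a tool, along with MACS2, SAMtools, Trimmomatic and FastQC, and GRCm38.p6 and mm10 as builds. How the authors combined replicates is not given here. Per peak, the authors deposited a score, the fold enrichment (a ratio) at the summit, and −log10 p and −log10 q. Whether the lists share a scale is not stated, so values set side by side across them are on each list's own scale. Fragment numbers and backgrounds were solved from fold and p by a search over whole numbers. The search, the gene placement, the overlap and the motif search were tested on simulated data.

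Genes came from the GRCm38.p6 RefSeq table (49550 genes, 21627 protein-coding). The promoter table, also RefSeq GRCm38.p6, held a start for 17273 (79.9%) of these. Place was read from gene ends because the gene table has no strand. Overlap meant at least 1 bp. Library depth is unknown beyond the fragment numbers, which set the precision given. No p-value was computed. Members, gene lists and measures were chosen with earlier results of these data known. Named members were the 15 of highest fold, those at gene ends or genes of the lists, those with a control peak, the widest, narrowest and closest, and those at the threshold. A few other members were named after their values were seen. Python 3.11.15, pandas 2.3.3, numpy 2.4.6 and scipy 1.17.1 were used.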

Additional observations from a re-analysis of the deposited data

How the results depend on the processing

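Of 52 values under other settings listed at the outset 43 stayed within the 95% interval of the reported value (for a count of genes, within 1.5 times it), as did 16 of 18 added after the data were examined. The setting that kept only peaks with q below 0.01 removed none of the 200. Its values were therefore fixed in advance, except the share with another NMDA peak within 10 kb (5.5%), and are counted among the 43. With the first 100 peaks the median width was 501 bp and the median distance to the nearest member 7.04 Mb, and with the first 400 they were 373 bp and 1.64 Mb. These settings change the number of peaks, which alone changes spacing. A gene end window of 5000 bp gave 18.5% at gene ends, and genes of all kinds gave 20.0% at gene ends and 33.0% between genes. Another NMDA peak lay within 1000 bp of 1.5% of members and within 100000 bp of 41.0%. Using only the 129 members with background at the floor, an added setting, left 7 chaperone genes and a median distance of 4.78 Mb, with fewer peaks. Ranking by −log10 p changed 12 members, and alphabetical order of chromosomes in ties, also added, changed 6. The 3-unit element share ranged from 13.6% (within 100 bp of the summit) to 40.9% (1 mismatch), on 22 peaks. The count of chaperone genes is small, and so are counts of elements. No value without 1 library could be computed, since a list is deposited per condition. No paired analysis was possible because a list per condition carries no replicate numbers. Motifs were searched in promoter windows only, as genome sequence was not used here.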

Other observations

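The number in each peak's name follows the order of −log10 p without exception in both lists. It runs to 36736 in the NMDA list of 3646 peaks and to 50997 in the control list of 3316 peaks, so each list holds part of a longer numbering. The 200 strongest NMDA peaks had numbers up to 242. Of the first 100 numbers the NMDA list held all 100 and the control list 85. Of the first 200 these were 198 and 153, and of the first 1000 they were 719 and 550. What removed the missing numbers was not tested.

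Among the other NMDA peaks with a promoter window, 6 had an exact 3-unit element in it. The strongest, at 3.76-fold, had its summit 122 bp from an end of Fam149a. Ahcy, which encodes the enzyme that breaks down S-adenosylhomocysteine, had a 3.12-fold peak with its summit 245 bp from a gene end. The others were nearest to Mga (3.23-fold), Meltf (3.12-fold), Pafah1b2 (2.59-fold) and 2700049A03Rik (2.31-fold). Their summits lay 24599, 1544, 20254 and 12 bp, in that order, from the nearest protein-coding gene end. Any window that overlapped the peak was searched, so an element need not belong to the gene named. None of these 6 genes is on the chaperone lists.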
